A study of Mus musculus with 288 samples.

Results

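Molecular chaperones help other proteins reach and keep their folded shape. Proteins of the Hsp70 family bind unfolded stretches, J-domain proteins (the DNAJ genes) bring substrates to Hsp70 and stimulate its ATPase, Hsp90 completes the folding of kinases and receptors, and the chaperonins fold proteins inside a closed chamber. Each compartment has its own set, so the cytosol, the lumen of the endoplasmic reticulum (ER) and the mitochondrial matrix have separate Hsp70 proteins and partners. Many cytosolic and mitochondrial members are targets of the heat shock factor HSF1, and many ER members are targets of the unfolded protein response. Embryonic stem cells are known for high levels of several of these chaperones, among them the 8 subunits of the CCT ring, the chaperonin that folds actin and tubulin.

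The chaperone genes were taken by name from the deposited table, as the rows that start with Hspa, Hspb, Hspd, Hspe, Hsph, Hsp90, Dnaja, Dnajb, Dnajc, Tcp1 or Cct followed by a number, without pseudogene (-ps) names. The rule gave 91 of 54232 genes. Of these, 82 belong to chaperone groups that were compared by compartment, and 9 share only the letters: Tcp10a, Tcp10b, Tcp10c, Tcp11, Tcp11l1, Tcp11l2, Tcp11x2 and the cofactors Hspbp1 and Hspbap1. There were 15 pseudogene names, which were left out. At least 1 read in a kept cell was found for 88 of the 91, and Dnajb8, Hspb3 and Tcp10a had none.

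The cells were mouse embryonic stem cells, labelled E14 and strain 129/Ola throughout. At 0 h (D0) they were in 2i+LIF, that is N2B27 medium with CHIR99021, PD0325901 and leukemia inhibitory factor, and for 24 h (D1) and 48 h (D2) they had been in serum with the same factor. All were detached with accutase, sorted singly into plates, and held at 37 °C for 15 min with a GpC methylase before lysis, so that RNA and DNA could be read from the same cell. Each time point was 1 plate of 96 wells with no sign of a second culture. Time therefore cannot be told apart from culture and plate. Because single cells of a culture do not replicate it, differences between labels carry no p-value and are differences between these plates.

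Of 288 wells, 233 were kept, with reads above 200000, detected genes above 2000 and a mitochondrial share of reads below 0.15 as a fraction: 90 at D0, 50 at D1 and 93 at D2. Reads per kept cell ran from 202157 to 43336922, with the deepest cells at D1. The median number of detected genes was 9002, 10676 and 4744 at D0, D1 and D2, and 7796, 8045.5 and 3927 with each cell thinned to 200000 reads, so the D2 cells held fewer genes at equal depth. The median mitochondrial share was 4.54%, 3.32% and 1.32%. A read of Hprt was present in 48 of 50 cells labelled D1 but in 9 of 90 at D0 and 7 of 93 at D2. The mean Hprt level was 3.08, 207 and 2.68 CPM. A widely used derivative of E14 is known to be deficient in Hprt, so the doubt is that the D1 cells may be of another line or subline than the D0 and D2 cells, although the labels give E14 for all. A difference in line cannot be told apart from time in any D1 over D0 or D2 over D1 value below, and D2 over D0 is the comparison without the D1 cells. All 8 markers of embryonic stem cells passed a limit of 50% of cells with a read at every label. None of the 6 primitive endoderm, 4 trophectoderm and 4 fibroblast markers was, and the median of the summed level was 0 for each of these lists at each label.

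Levels are given as CPM, the reads of a gene scaled to a fixed total per cell. They were compared between labels as the log2 ratio of (mean CPM + 10), a scale that understates the difference of low genes. A gene entered a comparison when 50% or more of the cells had a read at 1 label or both, and was counted as higher or lower when it differed at least 2-fold on that scale. Fewer transcripts and fewer cells carrying them both lower a mean. The share of cells with a read is therefore given for many of the genes in which it moved. Together the 91 genes took 3.11% of the reads of the median D0 cell, 4.10% at D1 and 3.71% at D2. The summed level was above the D0 median in 44 of 50 D1 cells and in 77 of 93 D2 cells.

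At D1, 6 of the 59 chaperone genes that entered were higher than at D0, namely Hspb1, Dnajc15, Dnajb6, Hspb11, Hspa8 and Hspe1, where 7.38% of all 10494 genes were higher. Lower were 5, Dnajc13, Dnajc6, Hspb8, Dnajc10 and Dnajc18, where 16.7% of all genes were lower. At D2, 4 of 54 were higher than at D0, Cct7, Dnajb1, Hspb1 and Hspa8, against 6.86% of all 8822 genes. Lower were 5, Dnajc13, Dnajc18, Dnajc10, Dnajc21 and Dnajc6, against 20.5% of all genes. The median log2 ratio of the chaperone genes was 0.19 at D1 and 0.10 at D2, and that of all genes was -0.13 and -0.16. With factors from the trimmed mean of M values (TMM) on summed reads, the all-gene medians became 0.03 and 0.02. The counts then became 10 higher and 4 lower at D1, and 11 higher and 6 lower at D2. Of all genes 9.96% were then higher and 11.8% lower at D1, and 14.2% and 17.3% at D2. A set of 10 D1 cells stood apart with under 500 CPM of Cct7, a level chosen after the values were seen. They had 350065 to 17370497 reads and 2172 to 11952 genes, so they were not the shallow cells alone. Their median was 1715 CPM of Hspe1 and 1193 CPM of Hspa8, against 587 and 4766 CPM in the other 40. Without them 8 chaperone genes were higher and 4 lower at D1, against 6.72% and 14.2% of all genes. Hspe1 (0.58), Hspb11 (0.62) and Dnajc18 (-0.93) were then within 2-fold, while Hspa5 (1.17), Dnajc3 (1.15), Dnajb11 (1.01) and Hsph1 (1.00) were past it. Such cells numbered 5 of 90 at D0 and 2 of 93 at D2 and were kept there. Since the limit is on a chaperone level, it moves Cct7 and the genes that go with it by construction, and these values only describe how far the 10 cells carry the D1 means. Both comparisons use the same D0 cells, so values in them are set side by side. Where a gene is called higher or lower at both times, those calls are not independent of each other.

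**Figure D1:**
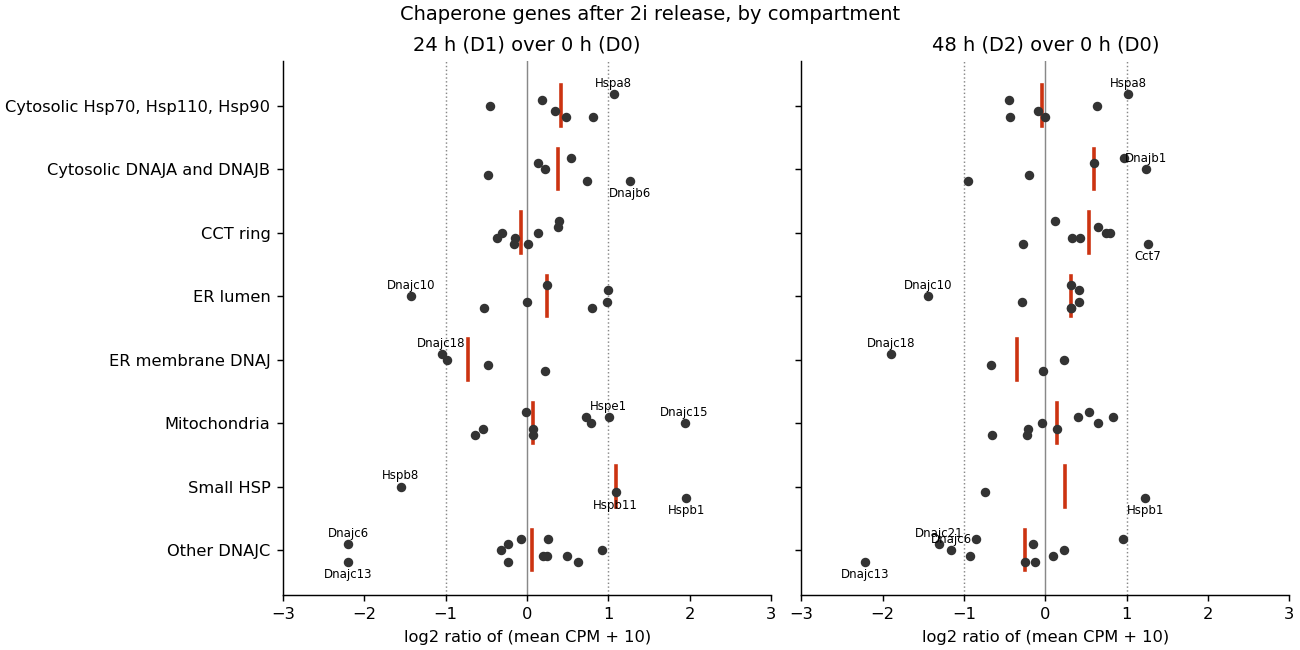
Each point is a chaperone gene that entered the comparison, placed by its log2 ratio of (mean CPM + 10) on the horizontal axis and by group on the vertical axis, for D1 (left) and D2 (right) over D0. Red bars are group medians and dotted lines mark 2-fold. Hspb1 stood at 1.95 and 1.23, and Dnajc13 at -2.20 and -2.22.

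Among the cytosolic Hsp70, Hsp110 and Hsp90 genes, Hspa8 was higher at both later time points while the other 5 that entered, of 11 listed, stayed within 2-fold. Hspa8, the constitutive Hsc70, ran from 224 CPM in the lowest to 1937 in the median and 5377 in the highest D0 cell. The D1 cells ran from 339 over 4392 to 10063 CPM, and the D2 cells from 978 over 4267 to 8537 CPM. The ranges overlapped, but 41 of 50 D1 cells and 83 of 93 D2 cells were above the D0 median. The mean was 2079 ± 882 CPM (SD between 90 cells) at D0, 4353 ± 2223 (50 cells) at D1 and 4228 ± 1593 (93 cells) at D2, a log2 ratio of 1.06 and 1.02. With no filter on cells these were 0.90 and 0.97, just inside 2-fold.

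Per kilobase of transcript, both Hsp90 genes had the highest mean levels of all chaperone genes at D0 and D1, while at D2 Hspa8 lay between them. On that scale the mean level at D0 was 2057 CPM for Hsp90aa1, the isoform known as stress-inducible, and 2056 CPM for Hsp90ab1, the constitutive isoform. Hspa8 followed with 868 CPM per kb. Hsp90aa1 had a mean of 6749 ± 2187 CPM at D0, 9430.5 ± 4016 at D1 and 4981 ± 1521 at D2. Its log2 ratio was 0.48 at D1 and -0.44 at D2, within 2-fold each time, and 40 of 50 D1 cells but 10 of 93 D2 cells were above the D0 median. Hsp90ab1 gave 0.34 and -0.09. In the median cell Hsp90aa1 made up 54.8%, 59.2% and 50.3% of the reads of the pair at D0, D1 and D2.

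The remaining members of this group were nucleotide exchange factors of the Hsp110 type and a ribosome-bound Hsp70. Hspa4, of the first kind, had log2 ratios of 0.18 and -0.45, and Hsph1, its heat-inducible relative, 0.81 and 0.00098. Hsph1 illustrates how the D2 cells differed among themselves: the mean was 135 ± 119 CPM at D0 and 135 ± 277 at D2, but the median was 112 and 8.14 CPM, with a read in 88 of 90 and 65 of 93 cells. Hspa14, which works with Dnajc2 on the ribosome, had means of 178 ± 117, 127 ± 86.7 and 282 ± 303 CPM. The group median was 0.41 at D1 and -0.044 at D2. The D2 value was 0.34 with summed reads and 0.61 with summed reads and TMM factors, so its sign turned already with the weight given to each cell.

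The Hsp70 genes known for the strongest induction by heat were at or near 0. Hspa1a had a read in 8 of 90 D0 cells (8.89%, exact 95% interval 3.92 to 16.8), 5 of 50 D1 cells and 2 of 93 D2 cells. Hspa1b had one in 1, 7 and 1 cells. Reads of either were present in 9 of 90 D0 cells (10.0%), 11 of 50 D1 cells (22%, 11.5 to 36) and 3 of 93 D2 cells (3.23%, 0.670 to 9.14). The highest cell of any label held 52.8 CPM of Hspa1a and 45.7 CPM of Hspa1b. Both genes lie on chromosome 17 and are near-identical, so reads could be split between them or lost. Their promoter windows, 250 bases before and 50 after the annotated start in RefSeq (GRCm38.p6), matched at 296 of 300 bases. The stretch around a pair of heat shock units, in capitals, is shown because it was the same in both, on the minus strand at chr17:34972231-34972282 for Hspa1a and chr17:34959313-34959364 for Hspa1b.
Hspa1a: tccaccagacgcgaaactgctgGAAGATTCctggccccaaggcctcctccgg
Hspa1b: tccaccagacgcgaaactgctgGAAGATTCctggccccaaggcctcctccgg

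A heat shock element consists of inverted repeats of GAA, the letters that HSF1 is known to bind. Spellings of 3 lengths were searched on both strands of the windows. The pair GAANNTTC was in 7.86% of all 32851 windows, the triple GAANNTTCNNGAA in 0.603%, and the quadruple TTCNNGAANNTTCNNGAA in 0.0152%, which is 5 windows. Counted by gene, since some genes have several windows, the shares of all 27025 genes were 9.04%, 0.662% and 0.0185%. Each longer spelling contains the shorter, so the counts overlap. Of the chaperone genes 76 had a window, and 17 of these genes held the pair, 4 the triple (Dnajb6, Hspd1, Hspe1 and Hsph1) and 2 the quadruple (Hspd1 and Hspe1). A match gives letters and not a bound site. Among the members without a listed window were Cct4, Dnajc18, Dnajc2, Hsp90aa1, Hsp90ab1, Hspa8 and Hspa9.

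Hsf1 itself, the gene of the factor, had means of 31, 31.1 and 27.7 CPM, log2 ratios of 0.0051 and -0.12. A read of it was present in 73.3%, 92% and 30.1% of cells, so the D2 mean rested on a smaller part of the cells. Of 17 genes of HSF1 and of the partners of Hsp70 and Hsp90, 16 entered, where 7.38% of all genes were higher and 16.7% lower at D1, and 6.86% and 20.5% at D2. None was higher and 2 lower at D1, St13 (-1.02) and Bag1 (-1.16). At D2 Bag6 was higher (1.57), and St13 (-2.23) and Ptges3 (-1.23) were lower. A read of Bag6 was in 97.8% of D0, 98% of D1 and 65.6% of D2 cells, and its D2 mean was 216 ± 411 CPM. St13, the Hip protein that stabilizes Hsp70 with bound ADP, had means of 1033, 505 and 212 CPM. Ptges3, the Hsp90 partner p23, had 585, 652 and 244 CPM. Bag1 is a nucleotide exchange factor, and Bag6 handles stray membrane proteins.

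Cells were detached and sorted before lysis, so genes that respond within minutes to handling were also read. Of 9 such immediate early genes, 5 entered at D1 and 3 at D2, where 7.38% and 6.86% of all genes were higher. Ier3 was higher at D1 (1.49) and Ier2 at D2 (1.66). Among those that did not enter, Egr1 gave 1.59 and 1.98, with a read in 8.89%, 34% and 25.8% of cells. Fos gave 1.02 and -0.022, Atf3 0.16 and -0.19, and Fosb -0.021 and -0.036. At D2 Jun (0.82) and Ier3 (1.43) did not enter either. The summed level of the 9 genes ran from 0 to 705 CPM at D0, 16.3 to 2994 at D1 and 0 to 2014 at D2, with medians of 115, 245 and 317 CPM. Whether handling had a part in the levels of Hspa8, Hspb1 or Dnajb1 was not tested.

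Among the cytosolic J-domain proteins of classes A and B, Dnajb6 was higher at D1 and Dnajb1 at D2 by the mean. Dnajb6, known to hold back protein aggregation, ran from 0 over 85.2 to 251 CPM at D0, 43.9 over 214 to 863 CPM at D1, and 2.61 over 147 to 1642 CPM at D2. The D1 and D0 ranges overlapped, and 45 of 50 D1 cells were above the D0 median. The means of 99.0 ± 49.2, 252 ± 153 and 204 ± 210 CPM gave log2 ratios of 1.26 and 0.97. Its promoter held a triple of heat shock units 46 to 34 bases before 1 of its starts, shown here from chr5:29735844-29735872 on the plus strand of GRCm38.p6, with the triple in capitals.
Dnajb6: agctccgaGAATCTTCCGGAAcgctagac

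Dnajb1, the main heat-inducible Hsp40, behaved otherwise. Its median was 50.3, 40.6 and 31.2 CPM at D0, D1 and D2, the highest cell 172, 345 and 1339.6 CPM, and the mean 53.1 ± 32.9, 63.3 ± 64.1 and 139 ± 250 CPM. The mean ratio of 1.24 at D2 thus rested on a part of the cells: 42 of 93 were above the D0 median, 26 had no read, and the ratio of medians was -0.55. Dnaja1 and Dnaja2, the general partners of Hspa8, stayed within 2-fold of D0. Dnaja1 had means of 355 ± 174, 596 ± 269 and 179 ± 177 CPM (0.73 and -0.95), and Dnaja2 491 ± 255, 349 ± 256 and 425 ± 622 CPM (-0.48 and -0.21). Of the 8 genes of this group 6 entered at D1 and 5 at D2, with medians of 0.38 and 0.59.

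**Figure D2:**
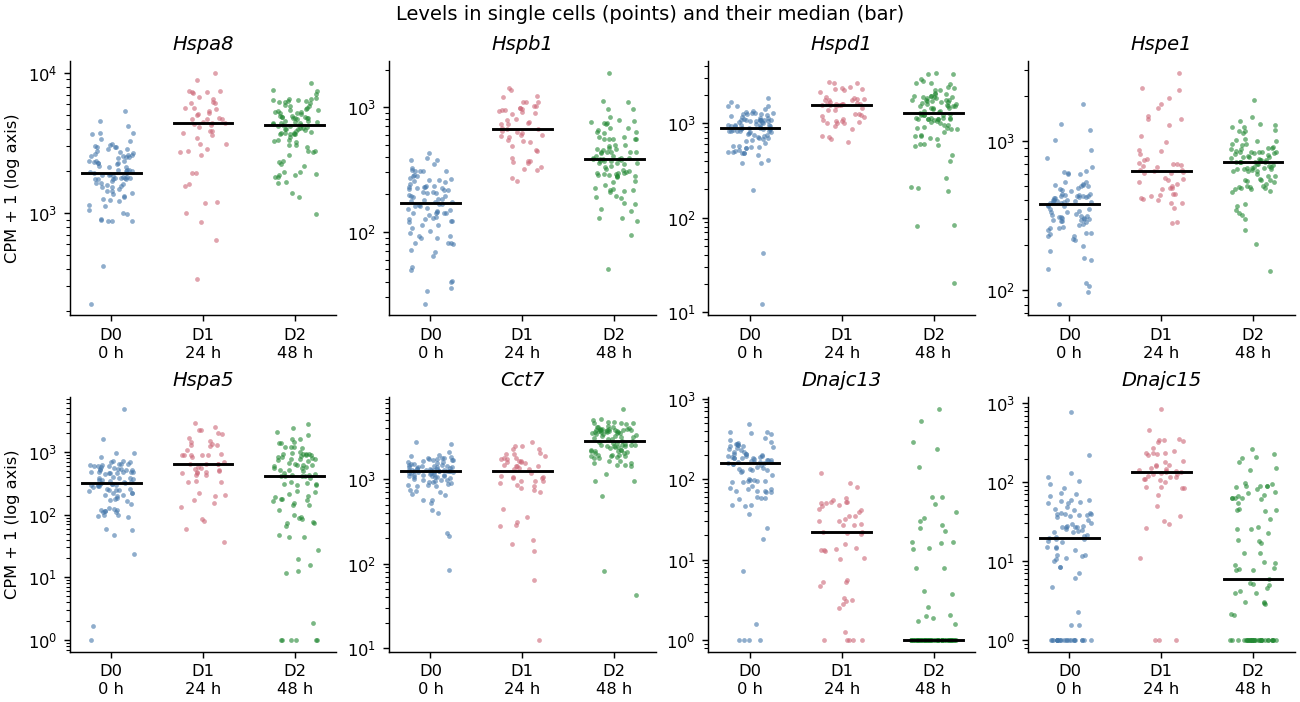
Each point is a cell, with CPM + 1 on a log axis, for 8 chaperone genes at D0, D1 and D2, and black bars are medians. All 50 D1 cells lay above the D0 median of Hspb1, 87 of 93 D2 cells above that of Cct7, and most D2 cells had no read of Dnajc13.

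The 8 subunits of the CCT ring, which assemble in equal numbers, did not keep equal ratios. At D1 none differed 2-fold from D0, with log2 ratios from -0.37 for Cct8 to 0.40 for Cct6a. At D2 Cct7 was higher, the other 7 ran from -0.28 for Cct2 to 0.79 for Cct4, and the group median was 0.54. The median at D1 was -0.071, 0.11 with summed reads and 0.31 with summed reads and TMM factors, so that sign too turned with the weight given to each cell. The summed CCT level of the median cell was 8724 CPM at D0, 9046 at D1 and 13889.7 at D2, and 81 of 93 D2 cells were above the D0 median.

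Cct7 ran from 82.1 over 1232 to 2770.3 CPM at D0, 11.4 over 1256 to 2766 CPM at D1 and 41.3 over 2812 to 6827 CPM at D2. The D0 and D1 ranges were alike, and 87 of 93 D2 cells were above the D0 median. The means of 1217 ± 457, 1225 ± 694 and 2924 ± 1193 CPM gave log2 ratios of 0.0096 and 1.26. Tcp1, the subunit that gave the complex its first name, had means of 848 ± 262, 685 ± 244 and 1424 ± 832 CPM (-0.30 and 0.74). Cct4 had 1117 ± 387, 1228 ± 643 and 1943 ± 1083 CPM (0.13 and 0.79), and Cct5 797 ± 325, 1038 ± 471 and 1258 ± 576 CPM (0.38 and 0.65). Cct3 gave -0.15 and 0.42, Cct8 -0.37 and 0.33, and Cct6a 0.40 and 0.11. Cct2 was the subunit with a lower mean at both times, with 614 ± 233, 549 ± 211 and 505 ± 299 CPM (-0.16 and -0.28).

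Per kilobase of transcript the subunits were in the order Cct2, Tcp1, Cct6a, Cct5, Cct4, Cct7, Cct3 and Cct8 at D0, from 313 to 765 CPM per kb, a ratio of 2.44. At D1 the order was Tcp1, Cct2, Cct4, Cct7, Cct3, Cct6a, Cct5 and Cct8, from 280.2 to 589.5, a ratio of 2.10. At D2 it was Cct2, Cct6a, Tcp1, Cct5, Cct4, Cct3, Cct8 and Cct7, from 258 to 1198, a ratio of 4.65. Cct2 was thus at or next to the lowest place at each time. Each step from one subunit to the next was smaller than the SD between cells of the higher one, so no neighbours in these orders differed beyond their spread.

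**Figure D3:**
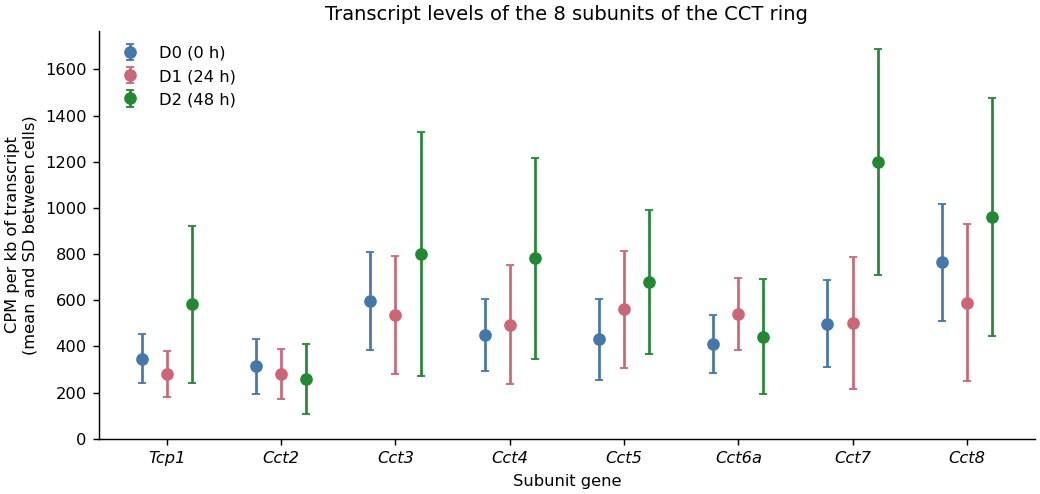
Mean CPM per kilobase of transcript (points) with the SD between cells (bars) for the 8 CCT subunits at D0, D1 and D2. Cct7 at D2, at 1198 CPM per kb, lies above the other subunits, and Cct2 runs from 313 to 258.

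Across cells of a label, the levels of CCT subunits went together to different degrees. Over the 28 pairs of subunits, the median Pearson correlation of log2(CPM + 10) was 0.17 at D0 (90 cells), 0.61 at D1 (50 cells) and 0.25 at D2 (93 cells), and the pairs ranged from -0.056 to 0.60, 0.094 to 0.91 and -0.017 to 0.64. Without the 10 D1 cells under 500 CPM of Cct7 the D1 median was 0.37, and the same limit gave 0.14 at D0 and 0.21 at D2, so the D1 value rested in part on those cells, which the limit selects by a subunit's own level. The highest at D1 was Cct3 with Cct7. Cells of a label share a plate and a pooled library, and each pair shares the cell's total as divisor. Without the 5 cells with the fewest genes in each label, a choice made after these values were seen, the medians were 0.23, 0.58 and 0.26. With all cells, Spearman's rho over the 28 pairs had medians of 0.23, 0.55 and 0.16, so D0 lay above D2 by rho. The summed CCT level had a Pearson correlation with the number of genes of 0.17, 0.31 and 0.22. With the log of the reads of a cell it was -0.20, 0.29 and -0.097. No p-value is given.

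Prefoldin hands unfolded actin and tubulin to the CCT ring, and phosducin-like proteins help it. All 9 genes of this list entered, and the counts stand beside 7.38% of all genes higher and 16.7% lower at D1, and 6.86% and 20.5% at D2. At D1 Pfdn1 (1.16), Pfdn2 (1.06), Pfdn4 (1.30) and Pfdn6 (1.62) were higher and Vbp1, the subunit also called prefoldin 3, was lower (-1.16). At D2 Pfdn6 (1.29) and Pdcl3 (1.04) were higher and none was lower. The transcripts of the 4 prefoldin genes that were higher at D1 are of 807 to 1735 bases, lengths at which the median of all genes was also above 0, and that of Vbp1, which was lower, has 1595 bases and lies in the same range.

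Among the 7 chaperones of the ER lumen that entered, of 8 listed, Dnajc10 was lower at both later times and none was higher. Dnajc10, the reductase ERdj5 that opens disulfide bonds, ran from 0 over 119.9 to 593 CPM at D0, 0 over 34.4 to 361 CPM at D1 and 0 over 0 to 778 CPM at D2. A read was present in 84 of 90, 47 of 50 and 40 of 93 cells. The means of 152 ± 119, 50.6 ± 61.9 and 49.6 ± 124 CPM gave log2 ratios of -1.42 and -1.44. The D1 value was -0.85 in plate columns 1 to 6 and -2.03 in columns 7 to 12, so it was past 2-fold in the latter alone.

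Hspa5, the ER Hsp70 known as BiP, lay just within 2-fold at D1. It ran from 0 over 318 to 4923 CPM at D0, 36 over 641 to 2862 CPM at D1 and 0 over 421 to 2774 CPM at D2. The ranges overlapped widely, and 40 of 50 D1 and 52 of 93 D2 cells were above the D0 median. The means of 418 ± 543, 839 ± 687 and 558 ± 561 CPM gave log2 ratios of 0.99 and 0.41. The D0 mean includes the cell with 4923 CPM, which lowers both ratios. With summed reads and TMM factors the ratios were 1.27 and 0.81, past 2-fold at D1. Dnajc3, the BiP partner p58IPK, gave 1.00 (0.9997) and 0.41, and Dnajb11, the BiP partner ERdj3, 0.79 and 0.32. Hsp90b1, the ER Hsp90 known as GRP94, had means of 581 ± 496, 688 ± 561 and 725 ± 550 CPM, 0.24 and 0.32. The group medians were 0.24 at D1 and 0.32 at D2. By the median over cells the D2 value was -0.75, where the median of all genes was -1.16.

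The ER stress element is the sequence through which ATF6 acts on ER chaperone genes. Its letters, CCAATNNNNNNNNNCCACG, were searched on both strands and were in 0.119% of all windows and 0.137% of all genes. They were in 3 of the 76 chaperone genes with a window, Hspa5, Hsp90b1 and Dnajc3, and Hsp90b1 held them in 2 places. The stretches are shown for these 3 genes with the element in capitals, from GRCm38.p6: Hspa5 at chr2:34772020-34772048 (plus), Hsp90b1 at chr10:86705616-86705678 (minus) and Dnajc3 at chr14:118937805-118937867 (plus).
Hspa5: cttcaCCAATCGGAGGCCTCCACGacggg
Hsp90b1: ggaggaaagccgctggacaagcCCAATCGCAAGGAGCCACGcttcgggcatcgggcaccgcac
Dnajc3: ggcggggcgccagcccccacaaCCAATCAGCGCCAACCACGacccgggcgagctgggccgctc

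Of 16 genes of ER folding and of the unfolded protein response, 15 entered. At D1 Manf, an ER protein released under stress, was higher (1.51) and Hyou1, the ER Hsp110, was lower (-1.30), against 7.38% and 16.7% of all genes. At D2 Xbp1 (2.16), P4hb (2.11), Manf (1.19) and Creld2 (1.04) were higher, and Canx (-2.31), Hyou1 (-1.81), Sec63 (-1.78) and Pdia3 (-1.05) were lower. Of all genes 6.86% were higher and 20.5% lower at D2, so the 4 of 15 that were lower are near the share of all genes. Xbp1, a transcription factor of the response, had means of 87.7, 176 and 427 CPM, and P4hb, the main protein disulfide isomerase, 369, 591 and 1624 CPM. Canx, a membrane-bound lectin chaperone, had 1588, 1018 and 311 CPM. The list thus held members on both sides at D2, with a median of 0.15. At D0 a read was in 90% of cells for Xbp1, 95.6% for Creld2, 91.1% for Hyou1 and 61.1% for Sec63. At D2 it was in 80.6%, 80.6%, 25.8% and 10.8%.

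J-domain proteins anchored in the ER membrane with the J domain in the cytosol were few and low. Dnajc18 was lower at both times, with means of 40.2 ± 69.8, 14.2 ± 21.6 and 3.45 ± 25.4 CPM (-1.05 and -1.90) and a read in 65 of 90, 32 of 50 and 6 of 93 cells. Dnajc14 had 49.7 ± 51.9, 20.2 ± 31.6 and 59.96 ± 165 CPM (-0.98 and 0.23). Its D2 mean came from few cells, since 36 of 93 had a read and the highest held 1059 CPM. Dnajb12, which helps to degrade misfolded membrane proteins, gave 0.22 and -0.032, and Dnajb14 gave -0.48 and -0.67. Dnajc16 did not enter and had a read in 44 of 90, 18 of 50 and 5 of 93 cells.

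In mitochondria, the chaperonin Hspd1 and its lid Hspe1 had higher means at D1 and D2, Hspe1 at the 2-fold limit at D1, while Hspa9, the matrix Hsp70, did not follow them. Hspe1 ran from 79.95 over 378 to 1764 CPM at D0, 283 over 634 to 2879 CPM at D1 and 134 over 724 to 1900.1 CPM at D2. The ranges overlapped, and 47 of 50 D1 cells and 84 of 93 D2 cells were above the D0 median. The D1 mean was raised by the 10 cells with little Cct7, of which all but 1 had 982 CPM of Hspe1 or more. The means of 411 ± 250, 833 ± 573 and 742 ± 290 CPM gave log2 ratios of 1.00 and 0.84. The D1 value was 0.58 without those cells and 0.73 with summed reads, so it lay within 2-fold in both. Across cells of a label, Pearson's r of Hspe1 with Hspa8 was -0.53, -0.67 and -0.0036 at D0, D1 and D2, and with Cct7 it was -0.26, -0.50 and -0.087. Spearman's rho was -0.32, -0.52 and -0.062 with Hspa8, and -0.18, -0.58 and -0.021 with Cct7. The D1 values include the 10 cells with little Cct7.

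Hspd1 ran from 11.2 over 887 to 1846 CPM at D0, 628 over 1558 to 2738 CPM at D1 and 19.1 over 1279 to 3413 CPM at D2, with 45 of 50 and 71 of 93 cells above the D0 median. Its means of 884 ± 339, 1529 ± 537 and 1387 ± 731 CPM gave 0.78 and 0.64, within 2-fold. The pseudogene Hspd1-ps3 took 6.77%, 4.27% and 7.0% of the reads of the pair. With its reads added the ratios were 0.75 and 0.65, so the split between both rows made little difference. Hspa9 had means of 1221 ± 415, 835 ± 411 and 1349 ± 839 CPM, log2 ratios of -0.54 and 0.14, and 9 of 50 D1 cells were above its D0 median.

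Hspd1 and Hspe1 lie head to head on chromosome 1 and share a promoter. The quadruple of heat shock units in their windows is a single place, 144 to 127 bases before the start of Hspd1 and 89 to 72 bases before that of Hspe1, at chr1:55088053-55088082. It is shown on both strands because it is the element that only 5 of all windows held, with the units and the bases between them in capitals.
Hspe1 (plus strand): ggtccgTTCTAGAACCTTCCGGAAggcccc
Hspd1 (minus strand): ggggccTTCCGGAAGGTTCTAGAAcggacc

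Across cells, the levels of both transcripts were compared as well. Pearson's r of log2(CPM + 10) was -0.0034 at D0, 0.19 at D1 and 0.50 at D2, and Spearman's rho 0.16, 0.27 and 0.38. The cell lowest in Hspd1 was left out of each label after these values were seen. Then r was 0.28, 0.12 and 0.50, so 1 cell decided the D0 value. For Hspa5 and Hsp90b1, both ER chaperones, r was 0.55, 0.65 and 0.17. At D2, 6 of 93 cells had no Hspa5 read. For Hsp90aa1 and Hsp90ab1 it was -0.23, 0.16 and 0.067, and for Hspa8 and Hsph1 0.26, 0.54 and 0.27. These are descriptions over the 90, 50 and 93 cells, which share plate and library.

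**Figure D4:**
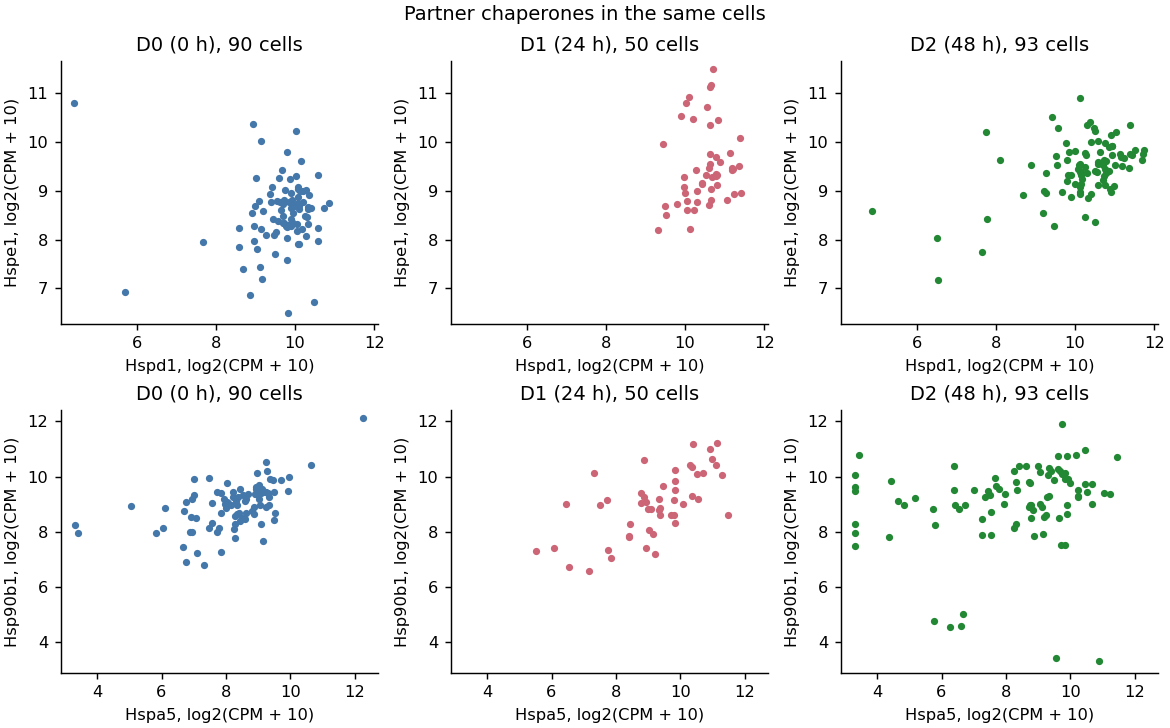
Each point is a cell, with log2(CPM + 10) of 2 partner chaperones on the axes, for Hspd1 and Hspe1 (top) and Hspa5 and Hsp90b1 (bottom) at D0, D1 and D2. For the top pair Pearson's r was -0.0034, 0.19 and 0.50, and for the bottom pair 0.55, 0.65 and 0.17.

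Dnajc15, a J-domain protein of the inner mitochondrial membrane known as a brake on respiratory complex I, was higher at D1 and not at D2. It ran from 0 over 18.8 to 785 CPM at D0, 0 over 135 to 855 CPM at D1 and 0 over 4.86 to 262 CPM at D2. A read was present in 68 of 90, 47 of 50 and 60 of 93 cells. The means of 35.7 ± 87, 165 ± 143 and 34.3 ± 55.9 CPM gave log2 ratios of 1.94 and -0.044, and D2 over D1 was -1.98. Dnajc19, part of the import motor, had 113 ± 113, 192 ± 139 and 151 ± 107 CPM (0.72 and 0.40). The pseudogene Dnajc19-ps took 11.9%, 11.7% and 13.2% of the reads of that pair. Dnaja3, the partner of Hspa9, gave -0.64 and -0.23. Of 10 mitochondrial members 9 entered, with medians of 0.078 and 0.14. By the median over cells the D2 value was -0.71, where the median of all genes was -1.16. In plate columns 7 to 12 the D1 value was 0.38.

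Of 11 genes of mitochondrial import and quality control, all entered and none differed 2-fold at D1, where 7.38% of all genes were higher and 16.7% lower. The exchange factor Grpel1, which serves Hspa9, came closest with 0.98, and its means were 157, 320 and 269 CPM. At D2 Yme1l1, a protease of the inner membrane, was lower (-1.38), against 20.5% of all genes. The list had a median of -0.40 at D1 and 0.23 at D2.

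The small heat shock proteins were divided. Hspb1, or Hsp27, which holds unfolded proteins without ATP, was the chaperone gene with every D1 cell above the D0 median. It ran from 25.5 over 169 to 429 CPM at D0, 255 over 672 to 1431 CPM at D1 and 49.4 over 380.2 to 1889 CPM at D2. The D0 and D1 ranges overlapped between 255 and 429 CPM, all 50 D1 cells were above the D0 median, and so were 84 of 93 D2 cells. The means of 179 ± 90.1, 724 ± 300 and 434 ± 267 CPM gave log2 ratios of 1.95 and 1.23. Its promoter held the pair of heat shock units in 2 places, at chr5:135887780-135887831 and chr5:135887800-135887851 on the plus strand, here with 1 pair in capitals in each.
Hspb1 first: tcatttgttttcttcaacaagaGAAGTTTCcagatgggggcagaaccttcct
Hspb1 second: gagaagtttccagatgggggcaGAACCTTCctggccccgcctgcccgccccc

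Hspb8, which works with Bag3 in the removal of aggregates, moved the other way. It ran from 0 over 64.7 to 300.2 CPM at D0, 0 over 15.7 to 148 CPM at D1 and 0 over 0 to 2655 CPM at D2. A read was present in 89 of 90, 41 of 50 and 17 of 93 cells, and 3 D1 cells and 7 D2 cells were above the D0 median. The means of 80.7 ± 64.2, 21 ± 26.7 and 44.3 ± 283 CPM gave -1.55 and -0.74, and the D2 mean was held up by the highest cell. Hspb11, better known as the intraflagellar transport protein Ift25, had 4.43 ± 8.81, 20.7 ± 31.2 and 11.7 ± 31.6 CPM and a read in 29 of 90, 39 of 50 and 19 of 93 cells, with 1.09 at D1. Of the other 5, Hspb6 was read in 17 of 90, 5 of 50 and 8 of 93 cells. Hspb2, Hspb3, Hspb7 and Hspb9, known from muscle and testis, did not enter.

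The other J-domain proteins of class C have particular tasks, and of those that entered Dnajc13 and Dnajc6 were lower at both later times. Dnajc13, or RME-8, which acts on endosomes, ran from 0 over 156 to 480.0 CPM at D0, 0 over 20.8 to 117 CPM at D1 and 0 over 0 to 751 CPM at D2. No D1 cell and 4 D2 cells were above the D0 median, and a read was present in 86 of 90, 45 of 50 and 29 of 93 cells. The means of 155 ± 99.4, 26 ± 25.5 and 25.5 ± 102 CPM gave log2 ratios of -2.20 and -2.22.

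Dnajc6, or auxilin, which strips clathrin from vesicles, had 67.6 ± 97.4, 6.88 ± 25.9 and 24.8 ± 167 CPM, with ratios of -2.20 and -1.16 and a read in 76 of 90, 15 of 50 and 7 of 93 cells. The D2 mean came mostly from a cell with 1568 CPM. With TMM factors on summed reads the D2 ratio was -0.19, inside 2-fold. Dnajc5, the cysteine string protein of secretory vesicles, gave -0.32 and -0.92.

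Class C members of RNA and ribosome metabolism varied. Dnajc21, needed for the maturation of the large ribosomal subunit, had 45.5 ± 60.6, 37.1 ± 29.7 and 12.4 ± 27.2 CPM and was lower at D2 (-0.24 and -1.31), with a read in 87 of 90, 50 of 50 and 40 of 93 cells. Dnajc8, a protein linked to splicing, had 235 ± 135, 367 ± 270 and 126 ± 106 CPM (0.62 and -0.86). Dnajc2, the ribosome-bound partner of Hspa14, had 189 ± 107, 367 ± 236 and 223 ± 199 CPM (0.92 and 0.23). Dnajc9, a histone chaperone, gave 0.25 and -0.12, and Dnajc7, a partner of both Hsp70 and Hsp90, gave -0.071 and -0.16. Of 16 listed, 12 entered at D1 and 11 at D2.

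Members known mainly from testis or other tissues were near 0. Dnajb3 had no read in any of 90 D0 cells, which allows a share of up to 3.33% (3 counts of 90), but had one in 14 of 50 D1 cells (28%, 16.2 to 42.5), with a mean of 6.46 ± 19.1 CPM, and in 2 of 93 D2 cells. Thinned to 200000 reads per cell the D1 share was 22%, so depth did not remove it. Dnajb13, a protein of the ciliary axoneme, was read in 21 of 90, 27 of 50 and 6 of 93 cells and gave 0.57 at D1. Cct6b, the testis form of Cct6a, was read in 37 of 90, 18 of 50 and 2 of 93 cells. Hspa12a was read in 5, 4 and 2 cells. Of the 9 names that share only letters with chaperones, 3 entered at D1 and none differed 2-fold.

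Transcript length moved with the ratios of all genes and is therefore given beside those of the chaperones. In D1 over D0 the median log2 ratio of all genes was 0.13 for transcripts under 1 kb, 0.084 from 1 to 2 kb, -0.17 from 2 to 3 kb, -0.43 from 3 to 5 kb and -0.71 from 5 kb. In D2 over D0 it was 0.13, 0.17, -0.14, -0.48 and -0.86. The chaperone medians in the same classes were 1.00, 0.19, 0.22, 0.18 and -0.16 at D1 and 0.62, 0.48, 0.32, -0.032 and -0.92 at D2.

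Of the members that were lower at D1, Dnajc13 (8012 bases), Dnajc6 (5322) and Dnajc18 (5146) were in the longest class, in which 34.4% of all genes were lower, and Dnajc10 (4042) in the class below, where 22.6% were. Hspb8 (1816) was in a class where 8.15% were lower. Of those higher at D1, Hspb1 (903), Hspe1 (774) and Hspb11 (608) were in the shortest class, where 13.9% of all genes were higher. Dnajb6 (1605) was in a class with 10.7% higher and Hspa8 (2394) in one with 6.93%. Dnajc15 (6193) was in the longest class, where 2.37% of all genes were higher. At D2, 43.8% of the genes from 5 kb were lower, among them Dnajc13, Dnajc6 and Dnajc18. The part of length in these members' ratios was not tested.

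**Figure D5:**
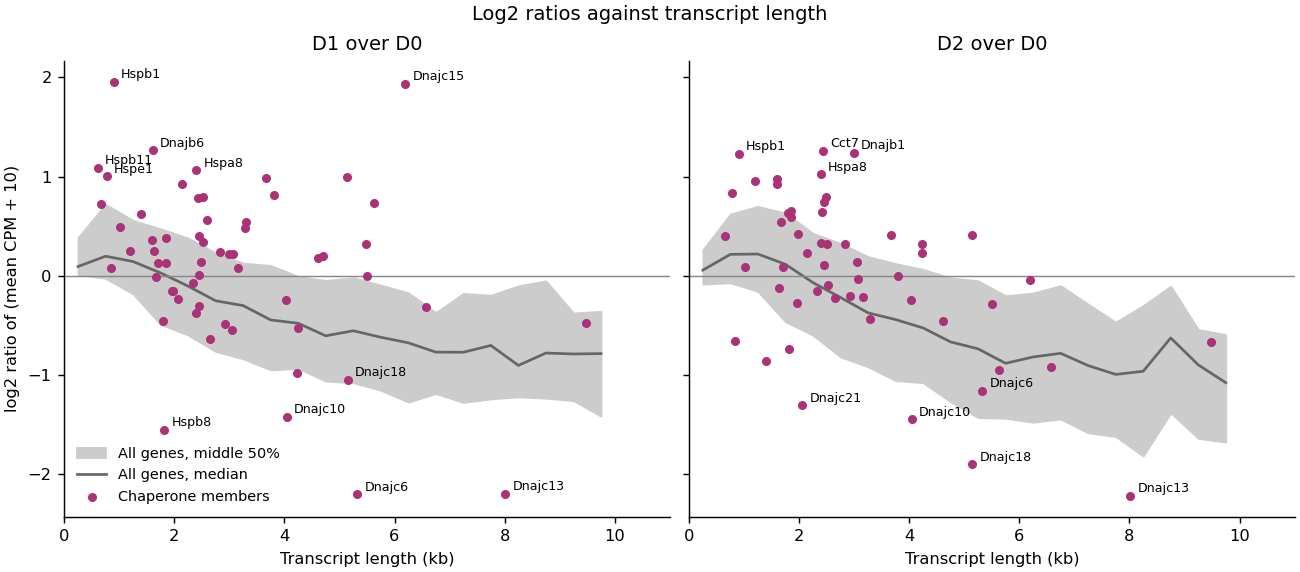
Log2 ratio of (mean CPM + 10) against transcript length in kb for the chaperone genes (points) at D1 (left) and D2 (right) over D0, with the median of all genes in each length bin (line) and the middle 50% (grey). Dnajc13, at 8012 bases, lies below the grey band at both times, and Hspb1, Hspa8 and Dnajc15 lie above it at D1.

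Between the later time points, D2 over D1, 5 of 57 chaperone genes were higher, where 9.62% of all 9855 genes were. These were Cct7 (1.25), Dnajc14 (1.21), Hspa14 (1.09), Tcp1 (1.04) and Dnajb1 (1.02). Lower were 4, Dnajc15 (-1.98), Dnaja1 (-1.68), Dnajc8 (-1.48) and Dnajc21 (-1.07), against 9.52% of all genes. For Dnajb1 and Dnajc14 the ratio of medians over cells had the other sign, at -0.30 and -1.24. With the D1 cells that had an Hprt read alone, a choice made after these values were seen, D1 over D0 had 7 higher and 6 lower, and all 29 differences counted in the 3 comparisons stayed past 2-fold. That choice leaves out 2 cells, and 7.55% of all genes were then higher and 17.3% lower in D1 over D0. Without the 10 D1 cells under 500 CPM of Cct7, 2 members were higher in D2 over D1, and Cct7 (0.98), Tcp1 (0.92), Hspa14 (0.87) and Dnajb1 (0.99) were within 2-fold. The limit lowers the values of Cct7 and its correlates there by construction. With summed reads 3 were higher, against 9.44% of all genes, and Tcp1 was 0.82.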

How the data were processed

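RNA-seq from scNMT-seq of 288 wells was used. The authors aligned the reads with HISAT2 to GRCm38 and deposited raw counts of reads per gene and well. The annotation and the counting tool are not given in the sources used here. Per the labels, the table is filtered and normalized, but its values are whole numbers and it also holds wells below the limits.

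Cells were kept by the study's limits, read as a mitochondrial fraction of 0.15. The number kept differs from the study's own. Counts were scaled to CPM per cell. Means weight cells equally, with a pseudocount of 10 CPM in ratios. With 1 culture per time point, no test was run. Intervals of shares are exact (Clopper-Pearson, 95%) and reflect counting error alone, as reads are not independent molecules. The limit given for a share of 0 is not such an interval but 3 counts over the number of cells. Lengths came from GENCODE M21, as the longest principal transcript of a gene, and promoter windows from RefSeq.

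The members and gene lists were chosen with earlier results of these data known. Named were the 8 CCT subunits, the 4 members of each group with the highest mean CPM, members at least 2-fold different from D0, Hspa1a, Hspa1b, Hsph1, Dnajb1, Hspb1 and Hsp90aa1, and listed partner genes past 2-fold. Hspa14, Dnajc3, Dnaja3, Dnajb14, Dnajc5, Hsf1, Grpel1 and the members that differ between D1 and D2 were added after their values were seen. Alternatives changed the filter, weight, average, pseudocount, detection limit, depth, scaling, plate position, fold limit and members, and left out D1 cells by Hprt or Cct7. Python 3.11.15, numpy 2.4.6, pandas 2.3.3, scipy 1.17.1, R 4.3.3 and edgeR 4.0.16, for the TMM factors alone, were used. The computation of ratios was tested on simulated data.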

Additional observations from a re-analysis of the deposited data

How the results depend on the processing

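Of the 29 differences counted as higher or lower in the 3 comparisons, all kept their direction under each setting that averaged means or summed reads, and 26 did so with the median over cells. With that median the D2 over D0 ratio of Dnajb1 was -0.55, its D2 over D1 ratio -0.30 and that of Dnajc14 in D2 over D1 -1.24. Between 20 (plate columns 1 to 6) and 29 stayed past 2-fold, and 21 did so with the D1 cells that had at least 500 CPM of Cct7. Of the 29, 14 stayed past 2-fold under every setting that changes the ratio: Hspb1 and Dnajc13 at both times over D0, Dnajb6, Dnajc15, Dnajc6 and Hspb8 at D1, Cct7, Dnajc10 and Dnajc18 at D2, and Dnajc15, Dnaja1 and Dnajc8 in D2 over D1. The other 15 were inside 2-fold under 1 or more, among them Dnajc21 at D2 (-0.86 in columns 1 to 6), Hspb11 at D1 and Dnajc18 at D1 (-0.89 with no filter). With no detection limit the median of the small heat shock proteins in D1 over D0 was -0.25 in place of 1.09, because genes with reads in few cells entered.

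Counts moved by over 1.5 times as follows. In D2 over D1, members higher were 5, and 3 with no filter on cells, with summed reads and with TMM factors, 1 with the median over cells, 8 with a pseudocount of 1 CPM, 2 in plate columns 1 to 6, 8 in columns 7 to 12, 2 without the D1 cells under 500 CPM of Cct7 and 12 at a 1.5-fold limit. The shares of all genes higher, in the same order, were 9.62%, then 16.6%, 9.44% and 10.5%, 1.78%, 15.0%, 10.0%, 11.7%, 7.72% and 20.7%. Members lower were 4 there, 20 with the median over cells and 13 at 1.5-fold. Of all genes 9.52%, 45.3% and 20.9% were lower. In D1 over D0, members higher were 6, and 11 with a pseudocount of 1, 10 with TMM and 15 at 1.5-fold. Of all genes 7.38%, 13.2%, 9.96% and 15.5% were higher there. In D2 over D0, members higher were 4, and 7, 11 and 14 in the same order, and members lower were 5, and 18 with the median over cells, 8 with a pseudocount of 1, 8 in columns 1 to 6 and 11 at 1.5-fold. Of all genes in D2 over D0, 6.86%, 9.74%, 14.2% and 17.1% were higher. Lower were 20.5%, and 53.4% with the median over cells, 28.1% with a pseudocount of 1, 24.4% in columns 1 to 6 and 33.3% at 1.5-fold.

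Group medians are given for cytosolic Hsp70 and Hsp90, CCT, ER lumen and mitochondria, each as D1 and D2 over D0, where they moved beyond their counting interval. The reported values were 0.41 and -0.044, -0.071 and 0.54, 0.24 and 0.32, and 0.078 and 0.14. With no filter on cells they were 0.26 for Hsp70 and Hsp90 at D1, -0.20 and 0.51 for CCT, 0.43 for ER at D1, and 0.21 and 0.21 for mitochondria. With summed reads they were 0.34 for Hsp70 and Hsp90 at D2, 0.11 and 0.56 for CCT, 0.13 and 0.22 for ER, and 0.17 and 0.17 for mitochondria. With the median over cells they were 0.35 and -0.29, -0.056 and 0.42, 0.10 and -0.75, and 0.27 and -0.71. The medians of all genes were then 0.0036 and -1.16. With TMM they were 0.62 and 0.61, 0.31 and 0.84, 0.34 and 0.49, and 0.37 and 0.42. In plate columns 1 to 6 they were 0.47 and -0.20, -0.15 and 0.47, 0.12 and 0.0075, and 0.20 for mitochondria at D2. In columns 7 to 12 they were 0.31 and 0.0073, 0.021 and 0.60, 0.29 and 0.18, and 0.38 and 0.42. In inner wells they were 0.42 and -0.087, -0.058 and 0.48, 0.16 and 0.43, and 0.0074 for mitochondria at D2. Thinned, Hsp70 and Hsp90 gave 0.42, CCT -0.082 and ER 0.27 at D1, and mitochondria 0.16 at D2. With no detection limit Hsp70 and Hsp90 gave 0.051 and ER 0.12 at D1, and mitochondria 0.27 at D2. A pseudocount of 1 gave 0.37 for ER at D2. With the D1 cells that had an Hprt read, Hsp70 and Hsp90 gave 0.43 and CCT -0.11 at D1. Without the D1 cells under 500 CPM of Cct7, left out after the data were seen, the D1 medians were 0.34, 0.18, 0.13 and 0.26, and the CCT value is raised by construction, since Cct7 is a subunit. The cause of these shifts was not tested, other than where the setting itself adds or drops genes or cells.

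The names that share only letters changed no count. No paired analysis was possible because the labels' replicate numbers name wells and each time point has 1 culture.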
